A study of Mus musculus with 6 samples.

Results

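The genes described here encode the heavy and light chains of cardiac and related striated muscle myosin: Myh6, Myh7, Myh7b, Myl1, Myl2, Myl3, Myl4 and Myl7. They were chosen by gene symbol, and 7 of the 8 genes had a probe, with 13 probes among 45281 in all. No probe was assigned to Myh7b in the annotation used here, so it has no value below. RNA came from hearts of FvB mice, aged 8 weeks per the labels (the series' design text gives the age in years), taken 3 weeks after surgery. Of 6 Illumina bead arrays, 1 held wild-type sham, 2 wild-type TAC, 1 JMJD2a transgenic sham and 2 JMJD2a transgenic TAC RNA. In TAC, or thoracic aortic constriction, a band narrows the aorta so that the left ventricle pumps against a higher pressure. JMJD2A is a histone lysine demethylase encoded by Kdm4a, and the labels describe the transgene as specific to the heart without naming its promoter. The labels do not say whether an array held 1 animal or a pool, and the spread behind the p-values is that between these 6 samples, some of it possibly technical.

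Myosin is the motor of the thick filament. A molecule holds a pair of heavy chains, each with a head that splits ATP and pulls on actin, and each neck is wrapped by an essential and a regulatory light chain. Adult mouse ventricle runs mainly on the fast alpha heavy chain, Myh6. The slow beta chain, Myh7, belongs to fetal ventricle and is a classic marker of pressure overload in rodents. Myl2 (regulatory) and Myl3 (essential) are the light chains of ventricle, Myl7 and Myl4 are their atrial counterparts, and Myl1 is the essential light chain of fast skeletal muscle.

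Introns of the 3 heavy chain genes carry related microRNAs, whose mature sequences show how alike they are. They are given from the RefSeq annotation of build GRCm38.p6, at chr14:54949072-54949093 on the minus strand (miR-208a, within Myh6), chr14:54975710-54975731 on the minus strand (miR-208b, within Myh7) and chr2:155622893-155622913 on the plus strand (miR-499, within Myh7b). Capitals mark the seed, bases 2 to 8, which miR-208a and miR-208b share and which differs in miR-499. The microRNAs themselves were not analysed here.
mmu-miR-208a-3p: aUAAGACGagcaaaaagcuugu
mmu-miR-208b-3p: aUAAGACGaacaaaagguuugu
mmu-miR-499-5p: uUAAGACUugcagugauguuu

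The stretches around annotated start sites follow for the pair of heavy chains and for Myl1 and Myl7, since these are the genes the values below turn on. Each is 300 bases, 250 before a RefSeq start site and 50 from it on, build GRCm38.p6. The 8 genes had 10 such windows, and of the Myh7 windows the one with a match is shown. Myh6 is chr14:54966558-54966857 and Myh7 chr14:54994577-54994876, neighbouring genes on the minus strand. Myl1 is chr1:66945007-66945306 and Myl7 is chr11:5898733-5899032, both on the minus strand. Capitals mark matches, on either strand, to a TATA box (TATAAA), an MCAT element (CATTCC, the site of Tead factors) or a CArG box (the site of serum response factor).
Myh6: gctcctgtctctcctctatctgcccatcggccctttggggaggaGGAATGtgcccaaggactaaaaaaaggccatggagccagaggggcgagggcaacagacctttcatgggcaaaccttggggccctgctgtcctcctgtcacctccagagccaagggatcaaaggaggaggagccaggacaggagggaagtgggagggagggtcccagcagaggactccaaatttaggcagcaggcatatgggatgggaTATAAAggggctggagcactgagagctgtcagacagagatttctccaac
Myh7: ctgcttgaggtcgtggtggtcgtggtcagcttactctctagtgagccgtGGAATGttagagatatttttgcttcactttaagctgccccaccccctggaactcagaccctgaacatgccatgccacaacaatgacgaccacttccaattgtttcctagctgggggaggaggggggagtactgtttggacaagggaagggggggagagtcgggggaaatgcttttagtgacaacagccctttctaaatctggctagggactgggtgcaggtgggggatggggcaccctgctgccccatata
Myl1: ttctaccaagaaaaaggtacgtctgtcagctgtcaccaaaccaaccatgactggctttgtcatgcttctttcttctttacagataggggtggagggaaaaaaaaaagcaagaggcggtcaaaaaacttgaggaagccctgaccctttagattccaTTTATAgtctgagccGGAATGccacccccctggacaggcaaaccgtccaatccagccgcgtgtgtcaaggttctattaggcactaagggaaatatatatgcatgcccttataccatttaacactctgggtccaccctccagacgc
Myl7: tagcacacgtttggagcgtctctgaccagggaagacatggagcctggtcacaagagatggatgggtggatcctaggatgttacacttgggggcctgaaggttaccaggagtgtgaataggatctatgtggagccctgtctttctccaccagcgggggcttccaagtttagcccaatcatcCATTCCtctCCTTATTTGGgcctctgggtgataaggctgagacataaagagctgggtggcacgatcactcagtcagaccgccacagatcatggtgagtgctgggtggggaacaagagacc

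Of the 10 windows of these genes, 5 held an MCAT match, each in a different gene, against 14.7% of 32851 promoter windows of this length. Myh6 and Myh7 both had 1, read on the opposite strand, at -206 and -201 from the start site. A CArG box was found in 2 of the 10 windows, those of Myl3 and Myl7, against 1.63% of all windows. TATAAA was found in 3 of the 10 (13.6% of all windows) and the GATA letters AGATAA in 2 (11.2%). None of these motifs was in the Myl4 window. No motif overlapped another in the windows printed. A match describes these letters only.

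Intensities were on the deposited linear scale, and differences are log2 with the standard error (SE) of a fit across all tested probes. A probe was tested if its mean lay above an intensity of 58.7, which 11 of the 13 member probes passed. The other 2, a Myl1 probe at 46.5 to 58.0 and a Myl4 probe at 39.1 to 50.5, lay near or below the array medians of 56.3 to 56.4 and stayed out. A probe passed the test at an adjusted p of at most 0.05. Each sham group was 1 array and was assumed to vary like the TAC pairs. Array pairs correlated at r = 0.984 to 0.994 over all probes, least between the transgenic TAC arrays. Cardiac muscle markers were bright on every array: Actc1, Tnnc1 and Actn2 lay at 13332 or above. Markers of fast skeletal muscle were not: Myh1, Myh4, Tnnt3 and Tnnc2 lay below the filter on average, and the 9 listed genes summed to 540.2 to 648. The brightest Kdm4a probe, which checks the labels only if the transgene holds its target (not given in the sources used here), read 104, 90.8 and 99.4 in wild-type sham, TAC 1 and TAC 2 and 101, 108 and 87.1 in transgenic arrays (0.01 ± 0.13, adjusted p = 0.994). A second tested probe read 84.5 to 90.1 in wild-type arrays and 131, 116 and 80.0 in transgenic sham, TAC 1 and TAC 2. Xist, transcribed from the inactive X chromosome, was near background in wild-type TAC 2 and transgenic sham and high on the other 4 arrays. The low arrays thus fell in both genotypes and both surgeries. Transgenic sham was the only array of its group and read 42.6, against 1316 and 2097 in transgenic TAC and 1450 in wild-type sham. TAC against sham within transgenic arrays, and the sham pair, therefore cannot be told apart from this Xist difference.

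Myl1 was the member with a probe past the test between genotypes. Its brighter probe (ILMN_2878542) read 12679 in wild-type sham, 11554 in wild-type TAC 1 and 10770.0 in wild-type TAC 2. In transgenic hearts it read 18525 after sham surgery, 21703 in TAC 1 and 22109 in TAC 2. The 3 transgenic arrays therefore lay above all 3 wild-type arrays, and the lowest transgenic array was the sham. Over both surgeries the probe rose 1.78-fold in transgenic arrays (log2 0.83 ± 0.10, 3 against 3 arrays, adjusted p = 0.0195). It was the only member probe of 11 to pass, while 0.453% of all tested probes passed that comparison. At an unadjusted p under 0.05 the count was 5 of 11, both Myl1 and all 3 Myh7 probes, against 9.65% of all tested probes.

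The dimmer Myl1 probe (ILMN_1216602) read 1926, 2037 and 1518 in wild-type sham, TAC 1 and TAC 2, and 4130.4, 7373 and 3451 in the transgenic arrays in the same order. Its groups did not overlap either, which held for 2 of 11 member probes and for 15.0% of all tested probes. Its difference was larger, 1.38 ± 0.27, without passing (adjusted p = 0.0876). After TAC alone, 2 against 2 arrays, the probes stood at 0.97 ± 0.11 (adjusted p = 0.0632) and 1.52 ± 0.34 (adjusted p = 0.465), where 0.0516% of probes passed. Both probes were among 3 of 11, with Myl3, that lay higher in both transgenic TAC arrays than in both wild-type ones, as 14.5% of all probes did. In the sham pair, which has no replicate, transgenic over wild type was 1.46-fold by the brighter and 2.14-fold by the dimmer probe. A log2 difference of 1 or more in that pair was seen for 0.952% of tested probes, and for the dimmer probe among the Myl1 pair. The third Myl1 probe, below the filter, read 54.4, 53.0 and 46.5 in wild-type sham, TAC 1 and TAC 2, and 53.8, 58.0 and 50.6 in transgenic arrays.

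The call for Myl1 depended on which arrays were in the fit. With 1 array left out the brighter probe stood between 0.76 and 0.97. It no longer passed when wild-type sham (adjusted p = 0.0597), wild-type TAC 1 (0.141), wild-type TAC 2 (0.139) or transgenic sham (0.0602) was dropped. It passed without transgenic TAC 1 (0.0138) and without transgenic TAC 2 (0.00857). With neither low-Xist array in the fit the difference was 0.92 ± 0.17 (adjusted p = 0.805), where wild-type TAC 1 alone stood against both transgenic TAC arrays and no probe of the table passed. The brighter probe averaged 62.7% of the highest intensity on the arrays, and the dimmer, at 13.2%, gave a 2.60-fold difference. Fast skeletal marker sums, given above, were 618 to 648 in wild-type and 540.2 to 588 in transgenic arrays. The 3 listed slow skeletal markers summed to 1099 to 1141 in wild-type and 1235 to 1714 in transgenic arrays. Tnnt1, the slow skeletal troponin T, read 964 to 1019 and 1115 to 1589 (0.40 ± 0.14, adjusted p = 0.392), without overlap, as held for 15% of all tested probes. The other slow marker tested, Myl6b, was lower on average, and Tnni1 lay below the filter. Of the 9 listed fast skeletal markers 5 were tested, with 1 higher and 4 lower in transgenic arrays (median -0.21). Mybpc2 and Mylk2, skeletal muscle genes given further on from other lists, lay higher on all 3 transgenic arrays. The part of skeletal muscle RNA in the Myl1 values was not tested. Cross-hybridization of the Myl1 probes with other light chains was not tested either, because no probe sequences were used here.

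TAC gave smaller Myl1 values than genotype did, and that contrast was not itself tested. By the brighter probe, TAC against sham was -0.18 ± 0.13 within wild type and 0.24 ± 0.13 within the transgenic group. By the dimmer probe the values were -0.13 ± 0.42 and 0.29 ± 0.42. Neither the TAC effects nor their difference passed, and the adjusted p was 1.00 for all 4 effects.

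**Figure D1:**
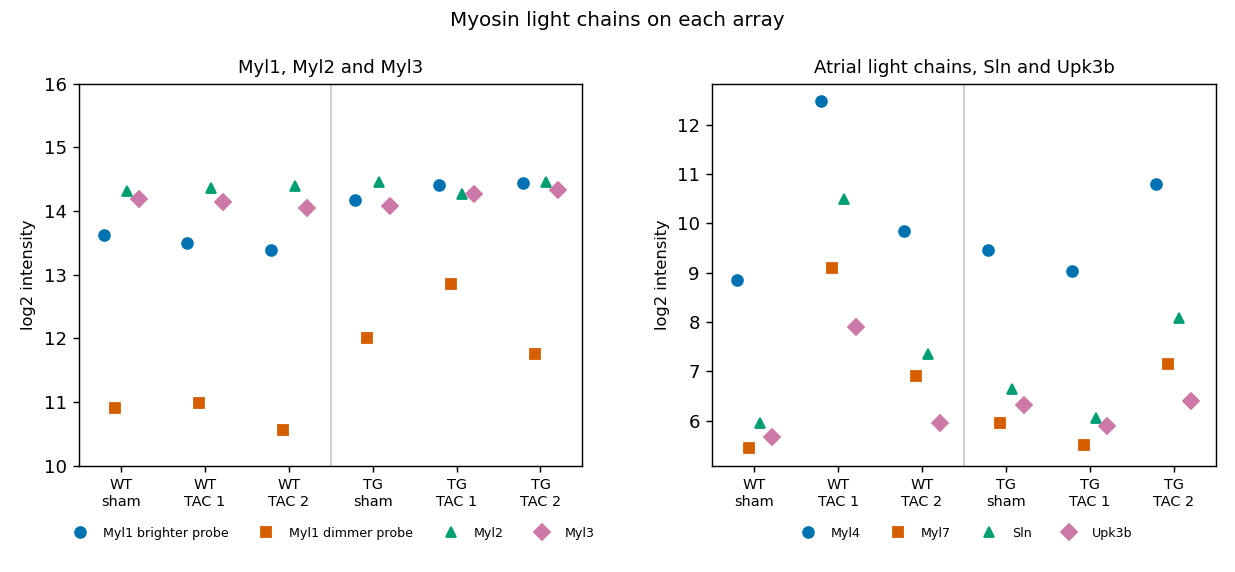
Light chain probes on each array, as log2 intensity for wild-type (WT) and transgenic (TG) hearts after sham surgery or TAC; each point is 1 array. In the left panel both Myl1 probes lie higher on the 3 TG arrays while Myl2 and Myl3 stay within 14.05 to 14.45. In the right panel Myl4, Myl7, Sln and Upk3b are all highest in WT TAC 1. The other listed atrial markers, not drawn, were each highest on another array.

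Myh7, the slow heavy chain, was lowest in wild-type sham by all 3 of its probes. The brightest (ILMN_2945491) read 158 in wild-type sham, 1881 in wild-type TAC 1 and 391 in wild-type TAC 2. In transgenic hearts it read 773 in sham, 3367 in TAC 1 and 1021 in TAC 2. The array labelled TAC 1 was the higher of the pair in both genotypes, by 4.80-fold in wild type and 3.30-fold in transgenic hearts. A gap of log2 1 or more between the TAC arrays was seen for 0.344% of tested probes in wild type and 3.33% in transgenic arrays. The second probe (ILMN_2665239) read 106, 558 and 181 in wild-type sham, TAC 1 and TAC 2, and 319, 1475 and 390.3 in transgenic arrays. The dimmest (ILMN_1213799) read 93.3, 470.1 and 161, then 288, 1230.0 and 337. All 3 probes ranked the 6 arrays in the same order, and transgenic sham lay above wild-type TAC 2 in each.

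TAC against sham over both genotypes asks what pressure overload changed, and the brightest Myh7 probe had the largest difference among the member probes. The Myh7 differences were 1.85 ± 0.65 (adjusted p = 0.578), 1.41 ± 0.55 (0.621) and 1.36 ± 0.54 (0.621), with TAC and sham arrays overlapping because of transgenic sham. No member probe passed in limma, where 0.00573% of all tested probes did. The 3 Myh7 probes, of 11, had an unadjusted p under 0.05, against 7.76% of all probes. No member probe kept TAC and sham arrays apart, as 15.6% of all probes did. Within wild type the brightest probe stood at 2.44 ± 0.95 (2 arrays against 1) and within transgenic arrays at 1.26 ± 0.95, with every TAC array above its sham, which 34.7% and 29.7% of all probes showed in these genotypes. The difference of these responses was -1.18 ± 1.34 (95% interval -4.35 to 1.99), so it was not resolved with these arrays. The TAC difference of the brightest probe kept its sign with each array left out (1.26 to 2.44). Both ends came from leaving out a sham array, which returns the value within 1 genotype given above. Within transgenic arrays the value of the brightest probe was 0.40 to 2.12 with 1 array left out and -0.81 with Xist as a covariate.

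Transgenic against wild type asks what the transgene altered whatever the surgery. Myh7 stood at 1.50 ± 0.61 (adjusted p = 0.485), 1.36 ± 0.52 (0.442) and 1.36 ± 0.51 (0.425) by its 3 probes, and the genotypes overlapped through wild-type TAC 1. In the sham pair alone, transgenic over wild type was 4.88-fold, 3.00-fold and 3.09-fold. Without transgenic TAC 2 both dimmer probes passed (1.94 and 1.93, adjusted p = 0.0299 and 0.0273), in a fit where 682 of all 17442 tested probes (3.91%) passed against 79 with all arrays. With neither low-Xist array in the fit, wild-type TAC 1 alone stood against both transgenic TAC arrays. That array was the highest wild-type one for Myh7. The brightest probe was then at -0.021, the second at 0.44 and the dimmest at 0.45.

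Myh6, the fast heavy chain, gave opposite readings by its probes. The brighter (ILMN_2788836) read 18222, 17087.5 and 18015 in wild-type sham, TAC 1 and TAC 2, and 15229, 17345 and 20602 in transgenic sham, TAC 1 and TAC 2. The dimmer (ILMN_2640008) read 3684, 4693 and 3264 in wild-type sham, TAC 1 and TAC 2. In transgenic hearts it read 4988 after sham surgery, 2367 in TAC 1 and 1896 in TAC 2. The brighter probe was lowest and the dimmer one highest in transgenic sham, and the reverse in transgenic TAC 2. Their correlation over the 6 arrays was r = -0.80.

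Such a disagreement was uncommon on these arrays. It was known when the genes were chosen, so the shares below describe it and test nothing. Of 4277 genes with 2 or more tested probes, 44 (1.03%) had a correlation between the brightest and second probe as low as Myh6 or lower, and the median was 0.52. Myh7 had r = 0.98 and Myl1 0.90 between the same pair of probes. Within transgenic hearts, TAC against sham was 0.31 ± 0.15 by the brighter Myh6 probe and -1.24 ± 0.27 by the dimmer, a gap of 1.55 that only 2 of the 4277 genes, Myh6 included, reached. Neither probe passed, in a comparison in which 0% of tested probes passed and 1 of 11 member probes, the dimmer Myh6 probe, had an unadjusted p under 0.05, against 3.53% of all probes. Without transgenic TAC 1, which leaves 1 array against 1, the dimmer probe passed at -1.40 ± 0.23 (adjusted p = 0.0203), as did 405 probes of the table (2.32%).

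In wild type the Myh6 probes stood at -0.05 ± 0.15 and 0.09 ± 0.27 after TAC, a gap that 47.6% of the 4277 genes reached. Over both genotypes TAC against sham was 0.13 ± 0.11 by the brighter and -0.57 ± 0.29 by the dimmer probe (adjusted p = 0.832 and 0.677). Transgenic against wild type was -0.01 ± 0.11 and -0.44 ± 0.27 (adjusted p = 0.983 and 0.670). After TAC alone the dimmer probe was lower in both transgenic arrays than in both wild-type arrays (-0.89 ± 0.22, adjusted p = 0.543), as 15.8% of all probes were. The brighter probe averaged 68.6% of the highest intensity on the arrays, 25873, and 99 probes of the table were brighter. Myh6 and Myh7 are close paralogs, and cross-hybridization between them was not tested, because no probe sequences were used here.

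**Figure D2:**
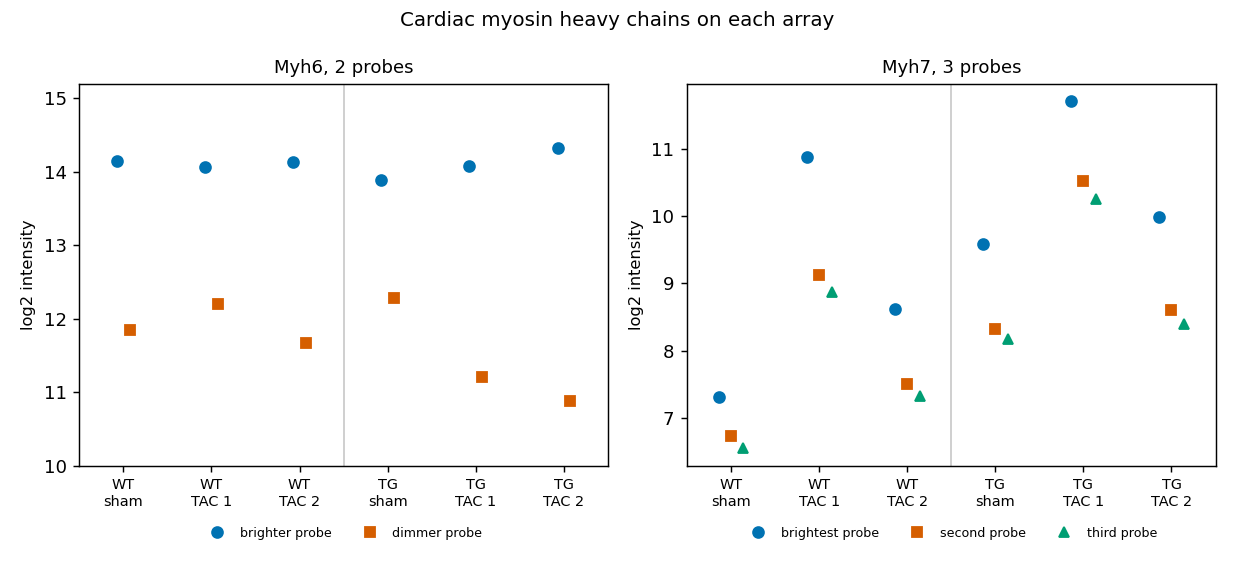
Heavy chain probes on each array, as log2 intensity for wild-type (WT) and transgenic (TG) hearts; each point is 1 array. The Myh6 probes move in opposite directions between TG sham and TG TAC, while the 3 Myh7 probes rank the arrays alike and are lowest in WT sham.

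Set against each other within an array, the heavy chains gave a balance of Myh7 to Myh6 that compares their changes from wild-type sham, not their levels. By the brightest probes it was 3.66 higher in wild-type TAC 1 and 1.32 higher in wild-type TAC 2 on the log2 scale. Among transgenic arrays it was 2.55 higher after sham surgery, 4.48 in TAC 1 and 2.51 in TAC 2. Every array thus lay above wild-type sham, and the transgenic sham value exceeded that of transgenic TAC 2 slightly. With the median over each gene's probes that order turned, to 1.50 against 2.27, and wild-type TAC 1 and TAC 2 stood at 2.26 and 0.87. TAC minus sham averaged 1.72 (two-sided exact permutation p = 0.267, smallest possible 0.0667) and transgenic minus wild type 1.52 (p = 0.3, smallest possible 0.1). With 6 arrays neither could have passed 0.05.

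Myl2 and Myl3, the ventricular light chains, stayed close to constant. The Myl2 probe (ILMN_1260428) read 20435, 20997 and 21618 in wild-type sham, TAC 1 and TAC 2, and 22349, 19722 and 22349 in transgenic arrays. Its highest array exceeded its lowest by 1.13-fold. Myl2 differences were -0.02 ± 0.09 for TAC against sham (95% interval -0.22 to 0.19) and 0.03 ± 0.08 for transgenic against wild type (-0.16 to 0.22). Of 6 listed ventricular markers, Myl2 among them, 5 were tested, with 3 higher and 2 lower in transgenic arrays. Among these Kcnd2 passed (limma adjusted p = 0.0354), as 0.453% of all probes did. It read 409, 291 and 279 in wild-type sham, TAC 1 and TAC 2, and 219, 140 and 104 in transgenic arrays.

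The Myl3 probe (ILMN_2691780) read 18599, 18075 and 16978 in wild-type arrays and 17244, 19754 and 20529.7 in transgenic sham, TAC 1 and TAC 2. TAC against sham was 0.07 ± 0.10 (adjusted p = 0.901) and transgenic against wild type 0.10 ± 0.09 (adjusted p = 0.798). Wild-type TAC arrays lay below their sham and transgenic ones above theirs, with a difference of responses of 0.31 ± 0.18 (adjusted p = 1.00). Both probes averaged a large share of the highest intensity, 82.1% for Myl2 and 71.6% for Myl3. Compression of differences near the ceiling was not tested.

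Myl4 and Myl7, the atrial light chains, followed 1 array more than any group. Myl4 (ILMN_2610744) read 463 in wild-type sham, 5718 in wild-type TAC 1 and 916 in wild-type TAC 2. In transgenic hearts it read 706 in sham, 522 in TAC 1 and 1779.5 in TAC 2. Myl7 (ILMN_2768252) read 43.3, 545 and 119.8 in wild-type sham, TAC 1 and TAC 2, and 61.7, 45.4 and 142 in transgenic sham, TAC 1 and TAC 2. Both genes were highest in wild-type TAC 1, then in transgenic TAC 2 and wild-type TAC 2, and ranked all 6 arrays alike (r = 0.98 over 6 arrays). In wild-type sham and transgenic TAC 1 Myl7 was below the lower quartile of the table, 46.5.

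For TAC against sham Myl4 stood at 1.38 ± 0.76 (adjusted p = 0.722) and Myl7 at 1.47 ± 0.70 (adjusted p = 0.659). Within wild type the values were 2.31 ± 1.05 and 2.56 ± 0.91, and within transgenic arrays 0.45 ± 1.05 and 0.38 ± 0.91 with overlapping arrays. Leaving out wild-type TAC 1 took the wild-type values to 0.99 and 1.47. Between genotypes Myl4 stood at -0.63 ± 0.71 and Myl7 at -0.94 ± 0.66, and Myl4 was at 0.30 without wild-type TAC 1. The balance of Myl7 to Myl2 averaged 1.49 higher after TAC and that of Myl4 to Myl3 1.31 higher (exact permutation p = 0.267 and 0.333). With the background percentile subtracted the first was 2.30, and with the median over probes the second was 0.67.

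Sln and Mybphl, also known from atrial tissue, ranked the 6 arrays as the atrial light chains did. Sln, the sarcolipin that restrains the calcium pump of atrial muscle, read 61.9, 1451 and 164 in wild-type sham, TAC 1 and TAC 2, and 99.8, 66.0 and 272 in transgenic arrays. Mybphl, a relative of cardiac myosin binding protein C known from atria, read 53.5, 613 and 91.9, then 57.2, 53.7 and 156. Upk3b, on the atrial list here and also known from mesothelium, had its highest value, 240.3, in wild-type TAC 1. The other listed atrial markers did not share that order: Dkk3, Gja5 and Nr2f2 were highest in transgenic TAC 2, Nppa in wild-type TAC 2, and Kcnj3, Kcna5 and Stard10 in transgenic sham. Of the 10 listed atrial markers 9 were tested, and Bmp10 lay below the filter. Without Nppa, which itself responds to overload, the other 9 summed to 1440.2 in wild-type sham, 3846 and 1762 in wild-type TAC, 1694 in transgenic sham and 1611 and 2973 in transgenic TAC. The part of atrial tissue in these values was not tested, and more atrial cells cannot be told apart from more RNA per cell.

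**Figure D3:**
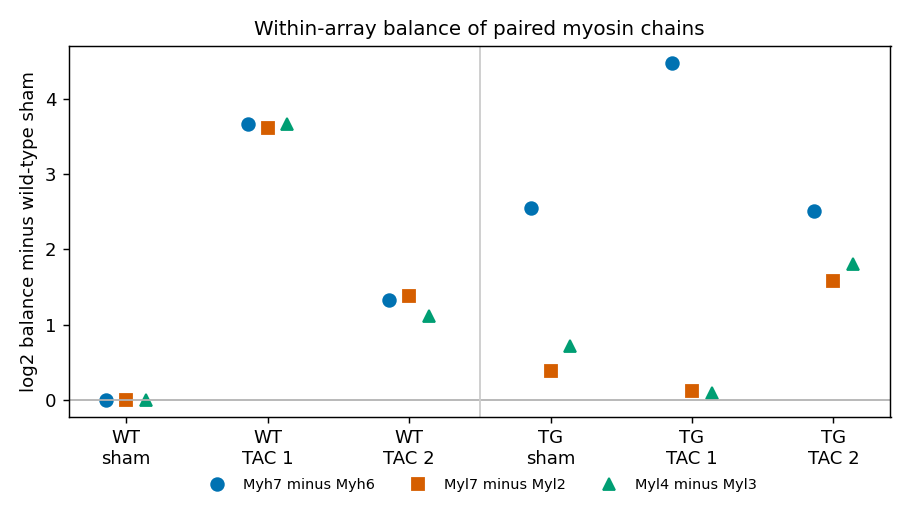
Within-array balance of chain pairs as log2 difference of the brightest probes, set to 0 in wild-type sham (WT, wild type; TG, transgenic; each point 1 array). Myh7 to Myh6 is above 0 on the other 5 arrays and highest in TG TAC 1 (4.48), where both atrial to ventricular light chain balances are near 0.

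**Figure D4:**
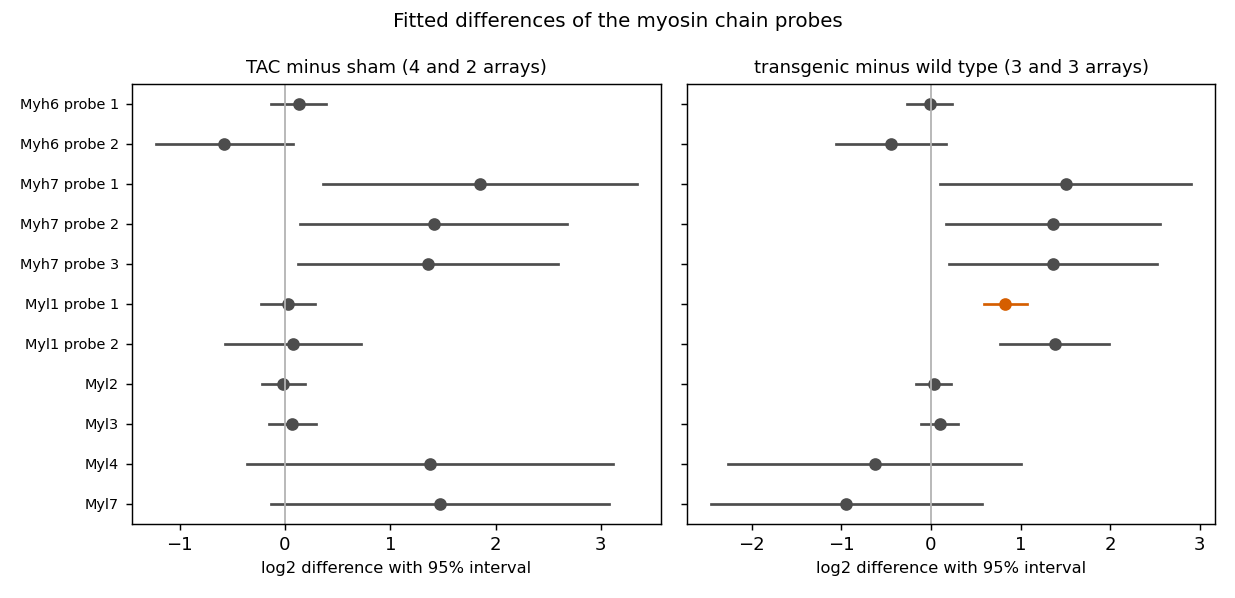
Fitted log2 differences of the 11 tested member probes with 95% intervals, for TAC minus sham (left) and transgenic minus wild type (right), all 6 arrays in 1 model; probes of a gene are numbered from the brightest. The brighter Myl1 probe, in orange, is the point past the threshold.

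Across the 6 comparisons the members gave 1 call. Over both genotypes 9 of 11 member probes were higher after TAC, with a median of 0.13, against 48.8% of all tested probes with a positive value and an overall median of -0.0046. For transgenic against wild type 7 of 11 were higher (median 0.10), against 48.6% of all probes. Probes of 1 gene are not independent. By the brightest probe of each gene 6 of 7 were higher after TAC (median 0.13) and 4 of 7 in transgenic arrays (median 0.03). In limma no member probe passed within wild type, within transgenic arrays, after TAC or for the difference of responses. At an unadjusted p under 0.05 there were 2 within wild type (2.67% of all probes), 1 within transgenic arrays, 3 for genotype after TAC (4.43% of all probes) and 1 for the difference of responses (1.41%). The TAC comparisons within a genotype share no array, but each shares its arrays with the comparisons over all 6.

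Partners of myosin were read from lists, by the brightest probe of each gene. None of 9 tested thick filament genes of 12 listed passed in any comparison. Mybpc2, the myosin binding protein C of fast skeletal muscle, was the nearest between genotypes (0.84 ± 0.22, adjusted p = 0.204). It read 191, 289 and 275 in wild-type sham, TAC 1 and TAC 2, and 528, 358 and 463 in transgenic arrays. It was among 3 of the 9 with no overlap, against 15% of all tested probes. Myom3 (0.25) and Myom1 (-0.14), myomesins of the M-band, came next. For TAC against sham the smallest p belonged to Mybphl (1.41 ± 0.72), Igfn1 (-0.16) and Mybpc3 (0.12), the cardiac myosin binding protein C, with adjusted p from 0.687 to 0.784. Within wild type Mybpc2 (0.56), Mybphl (2.15) and the myomesin Myom2 (-0.33) led, and within transgenic arrays Igfn1 (-0.31), Mybpc2 (-0.38) and Mybphl (0.68). After TAC the leaders were Mybpc2 (0.53), Myom2 (0.27) and Mybphl (-1.37), and for the difference of responses Mybpc2 (-0.94), Myom2 (0.40) and Igfn1 (-0.29).

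Of 19 genes of myosin folding, turnover and phosphorylation, 15 were tested and none passed, with 11 higher and 4 lower in transgenic arrays (median 0.18). Mylk2, the myosin light chain kinase of skeletal muscle, stood at 0.61 ± 0.11 (adjusted p = 0.0700). It read 47.6 to 62.4 in wild-type and 78.4 to 88.7 in transgenic arrays, all close to background. Hsp90aa1, a chaperone for folding myosin heads, stood at 0.66 ± 0.15 (adjusted p = 0.162). Its wild-type arrays read 144 to 149 and its transgenic ones 198 to 251. Smyd2, a lysine methyltransferase, was at -0.45. For TAC against sham 7 were higher and 8 lower, led by the kinase Mylk (0.28), Mylk2 (0.17) and Smyd1 (-0.39), a muscle methyltransferase. Within wild type Mylk (0.44), Mylk2 (0.26) and Unc45b (0.21), a myosin chaperone, led. Within transgenic arrays the leaders were Unc45b (-0.50), the ubiquitin ligase gene Fbxo32 (-0.42) and the cardiac kinase Mylk3 (-0.71). After TAC they were Mylk2 (0.55), Hsp90aa1 (0.59) and Smyd2 (-0.53), and for the difference of responses Unc45b (-0.70), Fbxo32 (-0.68) and Ppp1r12b (0.46), a myosin phosphatase subunit.

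Of 25 listed regulators of cardiac myosin genes, 17 were tested and none passed. Between genotypes Rxrg, a retinoid receptor that partners thyroid hormone receptors, was at -0.59 ± 0.18 (adjusted p = 0.287). The MCAT-binding factor gene Tead1 was at 0.42 and the cofactor gene Eya4 at 0.21. These were among 4 of the 17 without overlap, against 15% of all tested probes. Eya4 read 53.4 to 66.0, close to background. In all 7 were higher and 10 lower (median -0.04). For TAC against sham 9 were higher and 8 lower, led by Purb, a repressor of Myh6 (0.28, adjusted p = 0.656), Parp1 (-0.30) and Rxrg (-0.33). Purb lay above both sham arrays in all 4 TAC arrays, as 7.95% of probes did. Within wild type Tead1 (0.39), Mef2d (-0.26) and Purb (0.36) led. Within transgenic arrays these were Mef2d (0.42), Gata4 (-0.34) and Nkx2-5 (-0.33), transcription factors of heart muscle. After TAC Rxrg (-0.61), Eya4 (0.16) and Tead1 (0.24) led, and for the difference of responses Mef2d (0.68), Tead1 (-0.53) and Rxrb (0.61).

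Among 17 other myosin II chains 11 were tested and none passed. For TAC against sham 8 were higher and 3 lower, and Myh10, a non-muscle heavy chain, stood at 0.90 ± 0.18 (adjusted p = 0.462). It read 224 and 322 in wild-type and transgenic sham and 339.9 to 631 in the TAC arrays. It was among 2 of the 11 without overlap, against 15.6% of all tested probes. The light chains Myl6 (0.46) and Myl12a (0.36) came next. Between genotypes 4 were higher and 7 lower, led by Myl9, a smooth muscle light chain (-0.85 ± 0.26, adjusted p = 0.302), Myh10 (0.56) and the perinatal heavy chain Myh8 (-0.57). Within wild type Myh10 (0.87), Myl9 (0.69) and Myl6 (0.47) led, and within transgenic arrays Myh8 (-0.96), Myh10 (0.92) and Myl9 (-0.60). After TAC Myl9 was at -1.27 ± 0.22 (adjusted p = 0.230), beside Myh8 (-0.95) and the smooth muscle heavy chain Myh11 (-0.85). For the difference of responses the leaders were Myl9 (-1.28), Myh8 (-1.13) and Myh11 (-1.01). The 6 listed smooth muscle markers, Myh11 among them, summed to 5465 to 5480.3 in wild-type and 2733 to 4147 in transgenic arrays. Smtn and Myocd made up most of that sum, at 3109 and 1831 in wild-type sham, and Cnn1 lay below the filter. Myh11, at 325 in wild-type sham, was a small part of it. The part of smooth muscle in the Myl9 and Myh11 values was not tested.

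The 5 genes whose brightest probes followed Myh7 most closely over the 6 arrays were Lsm8 (r = 0.996), Man1a2 (0.991), Phf6 (0.981), Slc47a1 (0.975) and Ogfrl1 (0.972). Their own ranges were small, from 0.37 for Phf6 to 1.03 for Ogfrl1 on the log2 scale. The brighter Myh6 probe was followed by Cyb561a3 (0.986), Arap1 (0.984), Fcer1a (0.984), Pi4ka (0.982) and Foxp3 (0.981), with ranges of 0.20 to 0.79. With 6 arrays and 11167 genes compared, such values describe these arrays only.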

How the data were processed

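Hearts of wild-type and JMJD2a transgenic mice after sham surgery or TAC were measured on 6 arrays. The authors deposited linear intensities, 1 for each probe of an array, from 30.8 to 25873; per the labels' protocols, biotinylated cRNA was hybridised to Illumina arrays. The sources used here name no software, background correction or normalization. Sorted columns differed by at most 0.0064 (log2 scale) from their mean, the pattern of quantile normalization, which was kept. Here 12 values under 32 were raised to 32 before taking log2, without subtracting background, so folds of dim probes are understated.

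Of 45281 probes 34885 had 1 gene symbol, 18 several and 10378 none; symbols were updated by gene identifier (34807 matched). Probes above the 50th percentile (17442) were fitted in limma 3.58.1 under R 4.3.3 (lmFit, then eBayes with an intensity trend). P-values were adjusted over all of them by Benjamini-Hochberg. An additive model of surgery and genotype (3 residual degrees of freedom) gave the comparisons over all arrays, and a model of 4 groups (2) gave the others. On simulated data with 200 changed probes, 95% of log2 1 changes were called for transgenic against wild type over all arrays. The share was 97% for TAC against sham over all arrays, 75% for genotype among TAC arrays and 16% for the difference of responses. With the genotypes taken apart, TAC changes were called in 59% (wild-type) and 58% (transgenic). These shares describe the simulated probes as a set, not single members. With 200 changed probes the adjusted threshold is easier to reach than in data with few calls. The shares may therefore be too high for these arrays. Among the deposited values the brightest Myh7 probe differed by 1.85 ± 0.65 for TAC without passing. A member that was not called may therefore still have changed by log2 1 or more.

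Members and lists were chosen with earlier results of these data known. All member probes were described. From each pathway list the genes past the test, or else the 3 of smallest p, were named, and so were the 5 genes most correlated with Myh7 and Myh6. Marker and pathway genes were read by brightest probe, and the sum of atrial markers without Nppa was added after their values were seen. Alternatives covered probe choice, filter, normalization, background, trend, covariates and arrays left out. Promoter and microRNA sequences are from RefSeq tables in which all 8 member genes and the 3 microRNAs were found.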

Additional observations from a re-analysis of the deposited data

Results flagged for a closer look

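In 3 member probes both wild-type TAC arrays lay below their sham and both transgenic TAC arrays above theirs, which was so for 3 of 11 tested member probes and for 7.77% of all tested probes. For the brighter Myl1 probe the wild-type TAC arrays were -0.24 and -0.13 from sham and the transgenic ones 0.23 and 0.26, a difference of responses of 0.43 ± 0.19. For the brighter Myh6 probe they were -0.09 and -0.02 against 0.19 and 0.44, a difference of 0.37 ± 0.21, and for Myl3 -0.13 and -0.04 against 0.20 and 0.25, a difference of 0.31 ± 0.18. The test of the difference did not pass for any of these (limma adjusted p = 1.00). All 3 probes are among the brightest of the table, and the dimmer Myh6 probe had a difference of the opposite sign (-1.32 ± 0.38).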

How the results depend on the processing

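With 6 arrays the number of samples limits precision. For transgenic against wild type, where 1 member probe passed, 0 passed with the median over probes, without the intensity trend or without the arrays of low Xist, 2 passed without a filter, and 0 to 4 with 1 array left out. After TAC, where 0 passed, 1 passed by the brightest probe of each gene, with the filter at the 25th percentile or without a filter (the brighter Myl1 probe each time), and 0 to 4 with 1 array left out. Within transgenic arrays 0 to 1 passed. For all probes, calls for transgenic against wild type went from 79 to 8 to 682 with 1 array left out, 49 with the median over probes, 121 without a filter, 29 with Xist as a covariate and 0 without the arrays of low Xist. After TAC they went from 9 to 23 by the brightest probe, 5 by the median, 16 at the 25th percentile, 26 without a filter and 0 to 511 with 1 array left out (the highest without transgenic TAC 2), and within transgenic arrays from 0 to as many as 405 (without transgenic TAC 1). Of the values of the named differences under all alternatives, 991 kept their direction and side of the threshold. Another 19 came to pass, 7 no longer passed and 57 turned or reached 0, and the causes were not tested.

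Replicate numbers of the TAC arrays did not pair them (r = 0.0703 between deviations of same-numbered arrays over 17442 probes, 2 pairs). With a replicate block 5 member probes passed for transgenic against wild type, both Myl1 and all 3 Myh7 probes, beside 102 of 17442 probes in all (0.585%).

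With the median over probes the Myh6 values were -0.22 for TAC against sham, 0.016 within wild type, -0.46 within transgenic arrays, -0.39 for genotype after TAC and -0.48 for the difference of responses. Cyclic loess took Myl2 to 0.0026 for TAC against sham. With Xist as a covariate, TAC against sham was 0.0027 for Myl2 and -0.027 for the brighter Myl1 probe, the dimmer Myl1 probe was 0.0066 within wild type and -0.0030 for the difference of responses, and within transgenic arrays Myh7 was -0.81, -0.14 and -0.16, Myl4 -2.46 and Myl7 -2.06. Without the arrays of low Xist, TAC against sham was 0.039 for Myl2, 0.35 and -0.093 for the dimmer and brighter Myh6 probes, -0.041 for Myl3 and -0.13 for the brighter Myl1 probe. Transgenic against wild type was then -0.00016 for Myl2, 0.15 for the brighter Myh6 probe and -0.021 for the brightest Myh7 probe (also after TAC), and the dimmer Myl1 probe was 0.081 within wild type.

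With 1 array left out, TAC against sham turned for the dimmer Myl1 probe (-0.19 to 0.29), the brighter one (-0.18 to 0.24), Myl2 (-0.090 to 0.060), Myl3 (-0.086 to 0.22) and the dimmer (-1.24 to 0.087) and brighter (-0.055 to 0.31) Myh6 probes. Genotype turned for Myl2 (-0.021 to 0.095), Myl4 (-1.25 to 0.30) and the brighter Myh6 probe (-0.12 to 0.11). Within wild type the dimmer Myl1 (-0.34 to 0.081) and Myh6 (-0.17 to 0.35) probes turned. Within transgenic arrays Myl2 reached 0 without turning (-0.18 to 0). The dimmer Myl1 probe (-0.26 to 0.84), Myl4 (-0.43 to 1.33) and Myl7 (-0.44 to 1.20) turned there. After TAC the probes that turned were Myl2 (-0.11 to 0.069), Myl4 (-2.57 to 0.073), the brighter Myh6 probe (-0.017 to 0.23) and the brightest Myh7 probe (-0.021 to 2.24). For the difference of responses they were the third (-1.33 to 0.54) and second (-1.29 to 0.63) Myh7 probes and the dimmer Myl1 probe (-0.13 to 0.97).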
